A study of Rattus norvegicus with 8 samples.

Results

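Collagen chain genes were read from left ventricular arrays of female rats in late pregnancy whose hearts had gone through ischemia, a halt of blood flow, and reperfusion. A probe set counted as a member when the platform annotation gave it exactly 1 gene symbol of the form Col, number, a, number. Among 28826 probe sets, 27 met this rule, and they covered 25 of the 14497 genes named by 1 symbol. For Col6a4, the gene with several probe sets, the probe set of highest mean across the 8 arrays was used. The members were 10 fibrillar chains, 3 basement membrane chains and 12 other chains, and chains under other symbols or without a symbol, among them Col4a2, Col6a1, Col6a2, Col6a3, Col15a1 and Col18a1, were not analysed here.

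The placebo group, which received the vehicle at reperfusion, had 3 arrays. The group labelled ILPD had 5 arrays. The design text gives the treatment as a single bolus of 5 mg/kg under the abbreviation ITLD, and the title of the series names Intralipid, a lipid emulsion for infusion; that ILPD and ITLD mean the same treatment is taken as given. All groups shared sex, pregnancy and the ischemic injury, strain and age are not given in the sources used here, and no heart spared ischemia was analysed here. Sample numbers in the labels do not name separate animals, so every p-value reflects only how far these arrays spread, part of which may be technical. Values are log2 intensities as deposited, with array medians between 7.08 and 7.20 and correlations between arrays from 0.989 to 0.995. The labelled tissue was checked against its markers: 10 of 10 ventricular cardiomyocyte markers lay in the top 5% of probe sets by mean. Their lowest value in any array was 12.01. The atrial markers Myl7 and Nppa lay in the top 5% as well, and the atrial marker Sln did not. The check therefore shows cardiac muscle, and whether the samples also held atrial tissue was not tested.

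Collagens are matrix proteins whose chains wind around each other into a stiff helix. Fibrillar chains are secreted as procollagens, mainly by fibroblasts in the heart, trimmed and packed into the fibrils that bear the load of the myocardium. Type IV chains form the sheet-like network of basement membranes around cardiomyocytes and vessels. The remaining chains decorate fibrils, form other networks, anchor membranes or span the plasma membrane. In the heart, fibrillar chains are best known for the scar that forms after an infarct.

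RefSeq sequence upstream of the annotated start (assembly GRCr8) was found for 20 of the 25 genes. The 250 bases before the start are shown for Col1a2 and Col4a1, which had the largest negative differences among the fibrillar and the basement membrane chains, and for Col5a2, the neighbour of Col3a1 in the gene order of chromosome 9. The fourth sequence is the stretch of 88 bases that the windows of Col4a3 and Col4a4 share, since these genes lie head to head with 412 bases between their starts. Capitals mark the letters CCAAT of the promoter box of that name, the TATA box TATAAA and the GC box written GGGCGG. Each was searched on both strands, and in the windows printed the matches do not overlap.
Col1a2, chr4:33518307-33518556, plus strand: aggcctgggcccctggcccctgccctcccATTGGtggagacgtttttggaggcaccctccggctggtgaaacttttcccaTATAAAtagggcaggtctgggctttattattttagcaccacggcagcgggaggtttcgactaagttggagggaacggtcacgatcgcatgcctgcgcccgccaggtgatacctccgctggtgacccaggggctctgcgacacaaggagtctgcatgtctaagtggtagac
Col5a2, chr9:55090152-55090401, minus strand: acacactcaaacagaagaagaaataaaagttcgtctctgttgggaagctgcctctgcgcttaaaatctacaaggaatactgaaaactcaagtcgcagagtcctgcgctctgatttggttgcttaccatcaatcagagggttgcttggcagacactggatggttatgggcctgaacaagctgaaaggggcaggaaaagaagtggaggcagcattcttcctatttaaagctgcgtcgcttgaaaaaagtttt
Col4a1, chr16:84885347-84885596, plus strand: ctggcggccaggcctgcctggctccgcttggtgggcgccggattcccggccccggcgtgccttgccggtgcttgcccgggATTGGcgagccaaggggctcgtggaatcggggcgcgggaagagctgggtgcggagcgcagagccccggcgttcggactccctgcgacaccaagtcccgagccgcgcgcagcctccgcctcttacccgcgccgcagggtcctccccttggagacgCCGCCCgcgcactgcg
Col4a3 and Col4a4, chr9:91323740-91323827, plus strand: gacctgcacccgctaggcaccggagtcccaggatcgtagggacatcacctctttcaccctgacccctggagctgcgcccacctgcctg
The windows differed in composition. That of Col4a1 held 33 CG dinucleotides, that of Col1a2 held 12 and that of Col5a2 held 6. CCAAT or its reverse complement stood in the 250 bases of 7 of 20 collagen genes and of 34% of all 33465 windows, TATAAA in 4 of 20 and 12.9%, and GGGCGG in 11 of 20 and 30.5%. A match is a description of these letters and not evidence of a bound site.

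None of the 25 collagen genes passed the test between ILPD and placebo. Limma's test, adjusted by Benjamini-Hochberg across the whole array, called 0 of 25 at an adjusted p of 0.05, where 2.81% of all probe sets were called. At an adjusted p of 0.1 it called 0 of 25 as well, against 6.09% of all probe sets. At an unadjusted p of 0.05 it was again 0 of 25, against 18.3% of all probe sets, and the groups overlapped for each collagen gene, while they did not overlap for 12.4% of all probe sets. Differences of ILPD minus placebo ran from -0.30 for Col14a1 to 0.11 for Col5a3 on the log2 scale. The median was 0.04, with 17 positive and 8 negative, and it was 0.02 over all probe sets, of which 58.5% were positive. The signs of small differences depended on the scaling: 14 of the 25 turned after quantile normalization and 11 after cyclic loess normalization.

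The arrays set a bound on what could have gone unseen. The 95% interval of the difference lay within 1.5-fold in both directions for 24 of 25 collagen genes, a share near that of all probe sets (93.8%). The exception was Col14a1, whose interval ran from 0.638-fold to 1.04-fold. Among the others, the widest was that of Col1a1, from 0.701-fold to 1.33-fold. Without placebo array 3, or without ILPD array 4, the count was 22, with Col1a1 and Col1a2 outside as well, and without ILPD array 3 it was 25. In bulk tissue fewer cells of a type and less RNA per cell cannot be told apart, so the bound is on the measured log2 value, and for dim probe sets, 20 of the 25 having a mean of at most 8, it does not bound a transcript whose detection was not settled.

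**Figure D1:**
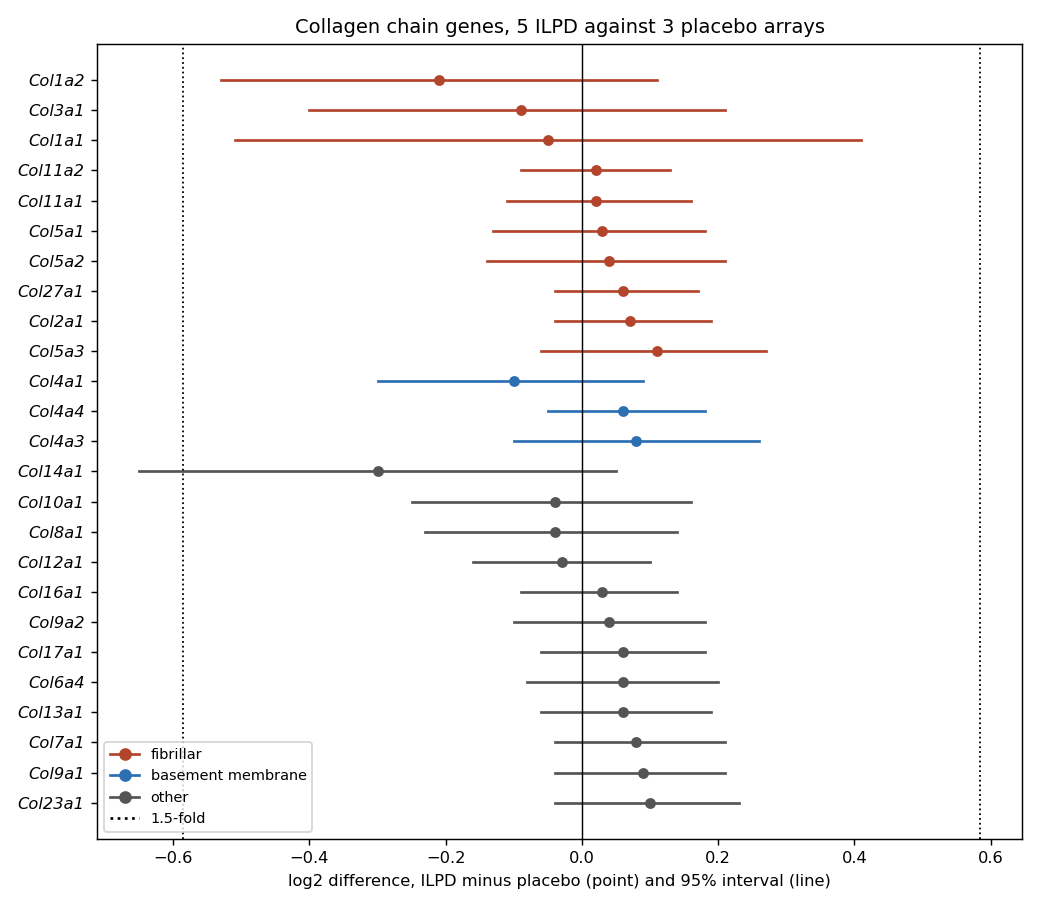
Log2 difference of ILPD minus placebo (x axis) for each of 25 collagen genes (y axis), by class, with the 95% interval of limma's fit as a line and 1.5-fold as dotted lines; n = 5 ILPD and 3 placebo arrays. Every interval crosses 0, and the interval of Col14a1, down to -0.65, is the one that crosses a dotted line.

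The chains of type I and type III collagen make up most of the fibrils between cardiomyocytes. Col1a1 (probe set 10737532), which codes for the chain present in duplicate in the type I molecule, read 9.56, 9.54 and 9.16 in placebo arrays 1 to 3 and 9.13, 9.36, 8.87, 9.55 and 9.93 in ILPD arrays 1 to 5. The ILPD arrays held both the lowest and the highest value, so the placebo arrays lay inside their range. The means were 9.42 ± 0.23 (SD, n = 3) and 9.37 ± 0.40 (SD, n = 5), a difference of -0.05 (SE 0.21, limma adjusted p = 0.929). The SD among ILPD arrays was the largest of the 25 genes.

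Col1a2 (probe set 10853559), the partner chain of type I collagen, read 9.46, 9.42 and 9.19 in placebo and 9.17, 9.12, 8.72, 9.21 and 9.49 in ILPD. Of the ILPD arrays, 3 lay below the placebo range and array 5 lay above it. Placebo averaged 9.36 ± 0.15 (SD, n = 3) and ILPD 9.14 ± 0.28 (SD, n = 5), which differed by -0.21 (SE 0.14, limma adjusted p = 0.488). Without ILPD array 5 it was -0.30 (adjusted p = 0.236) and without ILPD array 3 it was -0.11 (0.673). Col3a1 (probe set 10923052), whose chain forms type III collagen of the finer, more pliable fibrils, read 8.68, 8.67 and 8.42 in placebo and 8.46, 8.44, 8.14, 8.61 and 8.85 in ILPD. Here too the placebo arrays lay inside the ILPD range, and the difference was -0.09 (SE 0.14, adjusted p = 0.788). It was -0.18 without ILPD array 5 (adjusted p = 0.451) or without placebo array 3 (0.606), and 0.00 without ILPD array 3 (0.995).

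Type V chains start fibrils and limit their width. Col5a1 read 7.80, 7.85 and 7.93 in placebo and 7.81, 7.81, 7.83, 7.95 and 8.04 in ILPD, and Col5a2 read 7.79, 7.89 and 7.82 against 7.70, 7.99, 7.76, 7.89 and 8.01. The groups overlapped for both genes, with differences of 0.03 and 0.04 (SE 0.07 and 0.08). Col5a2 lies next to Col3a1 in the RefSeq gene order. Col5a3 had the largest positive difference of all members, 0.11 (SE 0.07, limma adjusted p = 0.497), with 7.45, 7.39 and 7.56 in placebo and 7.42, 7.57, 7.58, 7.58 and 7.72 in ILPD. Its lowest ILPD array lay within the placebo range.

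The other fibrillar chains are best known from cartilage. Col2a1, the main collagen there, read 7.39, 7.34 and 7.43 in placebo and 7.42, 7.45, 7.42, 7.52 and 7.49 in ILPD, a difference of 0.07 (SE 0.05, limma adjusted p = 0.516). Col27a1 differed by 0.06, Col11a1 by 0.02 and Col11a2 by 0.02. No detection call was used here, so it was not settled whether these dim probe sets measured any transcript.

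**Figure D2:**
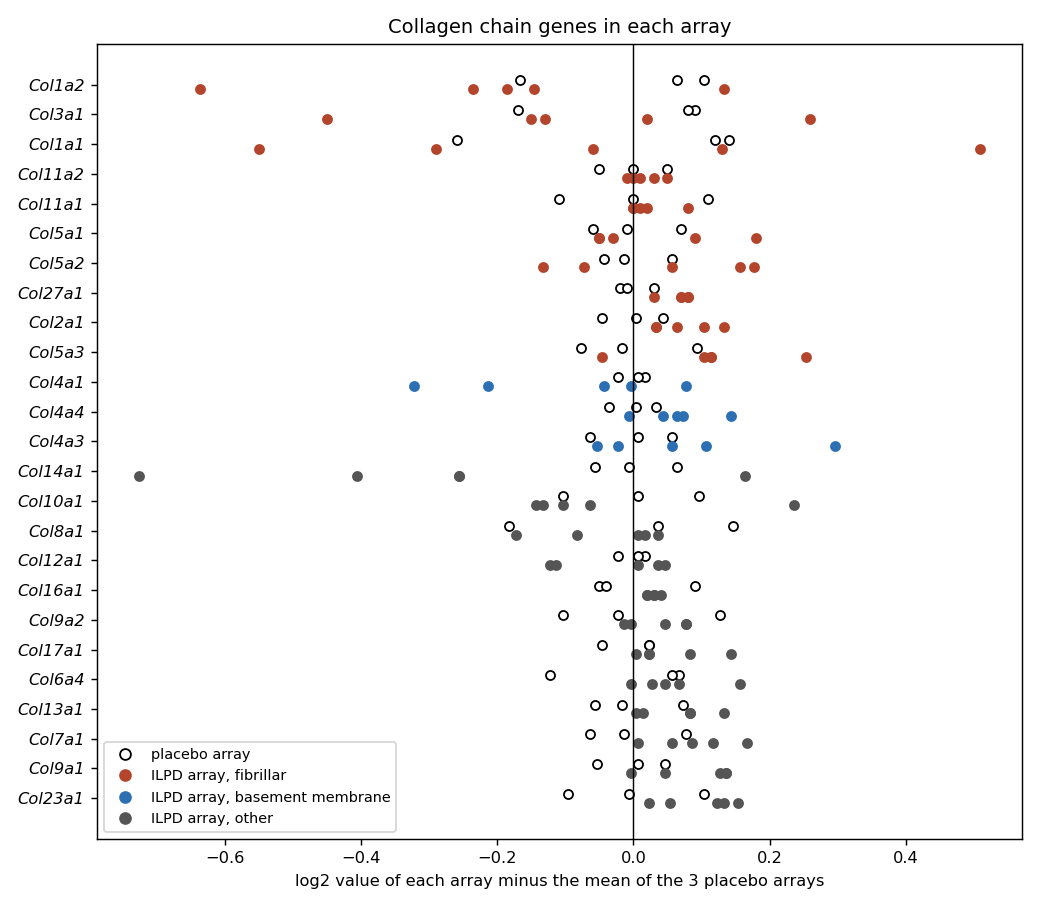
Log2 value of each array minus the mean of the 3 placebo arrays (x axis) for each collagen gene (y axis); open circles are placebo arrays and filled circles ILPD arrays, coloured by class. The spread among ILPD arrays is widest for Col1a1, at 1.06 from lowest to highest, followed by Col14a1 (0.89), Col1a2 (0.77) and Col3a1 (0.71).

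For several chains the same ILPD arrays held the lowest and the highest value of the group, while the order between them varied. ILPD array 3 was lowest and array 5 highest for 5 genes, Col1a1, Col1a2, Col3a1, Col14a1 and Col12a1. For Col12a1 the margins were small, at 7.22, 7.37, 7.21, 7.34 and 7.38 in ILPD arrays 1 to 5. For 17 of 25 collagen genes (68%) the SD among ILPD arrays was larger than the size of the difference between the groups, as for 58% of all probe sets. Over the 8 arrays, in 2-sided tests, Col3a1 followed Col1a1 most closely, with Pearson's r = 0.96 (exact permutation p = 0.000918, adjusted 0.0211 over 24 relations) and Spearman's rho = 0.90 (exact permutation p = 0.00456, adjusted 0.0548). Col1a2 gave r = 0.87 (exact permutation p = 0.00578, adjusted 0.0462) and rho = 0.90 (exact permutation p = 0.00456, adjusted 0.0548). Col12a1 gave r = 0.85 (exact permutation p = 0.00176, adjusted 0.0211) and rho = 0.83 (exact permutation p = 0.0154, adjusted 0.0923). Col14a1 gave r = 0.84 (exact permutation p = 0.0101, adjusted 0.0609) and rho = 0.88 (exact permutation p = 0.00724, adjusted 0.0579).

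These relations leaned on ILPD arrays 3 and 5, the samples farthest from the median of Col1a1. Without them r was 0.88 for Col3a1, 0.75 for Col12a1, 0.67 for Col1a2 and 0.50 for Col14a1, over 6 arrays. After adjustment over the 24 relations, 3 had an adjusted p of at most 0.05 by r and 0 by rho. The chains share arrays and therefore any shift of a whole array. By r, Col3a1, Col12a1 and Col1a2 passed and Col14a1 did not. Those after Col14a1 in order did not pass either. Col5a2 gave r = 0.70 (exact permutation p = 0.0554, adjusted 0.266) and rho = 0.66 (exact permutation p = 0.0839, adjusted 0.403). Col4a3 gave r = 0.63 (exact permutation p = 0.0914, adjusted 0.366) and rho = 0.36 (exact permutation p = 0.389, adjusted 0.856). Col4a1 gave r = 0.59 (exact permutation p = 0.139, adjusted 0.416) and rho = 0.45 (exact permutation p = 0.267, adjusted 0.802). Col5a1 gave r = 0.58 (exact permutation p = 0.135, adjusted 0.416) and rho = 0.33 (exact permutation p = 0.428, adjusted 0.856). Without ILPD arrays 3 and 5 these r were 0.42 for Col5a2, -0.01 for Col4a3, 0.52 for Col4a1 and 0.04 for Col5a1. No known batch was given in the labels or the table, so no value within batches could be computed.

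**Figure D3:**
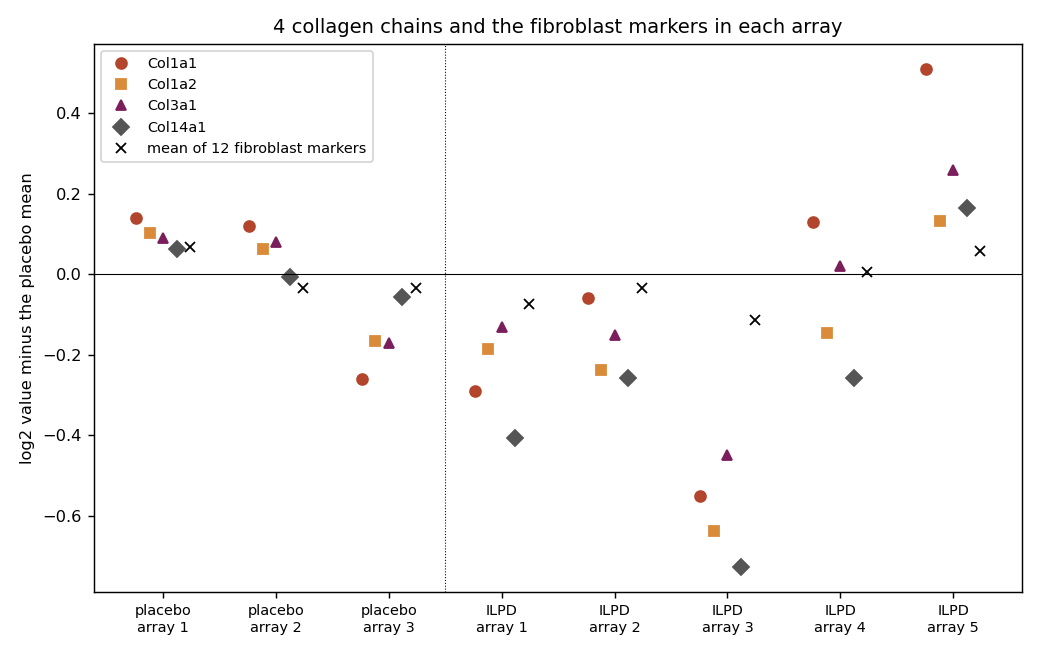
Log2 value minus the placebo mean (y axis) of Col1a1, Col1a2, Col3a1 and Col14a1 and of the mean of 12 fibroblast markers, in each of 8 arrays (x axis); points are single arrays, offset sideways for legibility. ILPD array 3 is the lowest and ILPD array 5 the highest of the ILPD arrays for all 4 chains and for the marker mean, which spans 10.29 to 10.46 there.

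Fibroblasts are the main source of fibrillar collagen in the heart, and their markers were read beside the chains. Of 12 measured fibroblast markers 0 passed limma's test, which called 2.81% of all probe sets, so 0 in a list of this size is near that share. Their median difference was -0.03, with 6 positive and 6 negative. The largest differences were those of the proteoglycan Lum (-0.35, SE 0.19, limma adjusted p = 0.356) and of the transcription factor Tcf21 (0.25, SE 0.15, 0.435). The mean log2 value of the list ran from 10.37 to 10.47 in placebo and from 10.29 to 10.46 in ILPD. Over all 8 arrays it was highest in placebo array 1, whereas Col1a1 was highest in ILPD array 5. Among the ILPD arrays alone it was lowest in array 3 and highest in array 5, as for Col1a1. The means of the lists of collagen maturation (8.53 and 8.74) and of fibril proteoglycans and matrix (9.85 and 10.12), read below, had these extremes too. Single fibroblast markers did not all share them: Lum read 9.34 in ILPD array 3 and 10.15 in ILPD array 5, while Tcf21 read 8.54 and 7.98. The part of fibroblast content in the spread of the chains was not tested. Of 6 myofibroblast markers 0 passed, with a median of 0.05. The largest difference among them was that of Tagln, an actin-binding protein (0.30, SE 0.09, 0.113), followed by Cnn1, a calponin of contractile cells (0.16, SE 0.10, 0.474).

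Among basement membrane chains, Col4a1 codes for the chain of type IV collagen found in nearly all basement membranes. Its probe set 10789594 read 8.59, 8.55 and 8.58 in placebo and 8.25, 8.65, 8.36, 8.53 and 8.57 in ILPD. The placebo arrays lay close together, and ILPD arrays 1 and 3 stood apart below them. Placebo averaged 8.57 ± 0.02 (SD, n = 3) and ILPD 8.47 ± 0.16 (SD, n = 5), which differed by -0.10 (SE 0.09, limma adjusted p = 0.593), and without ILPD array 1 the difference was -0.05 (adjusted p = 0.786).

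Col4a3 and Col4a4, the head-to-head pair whose shared upstream stretch is printed above, code for chains that replace the common ones in the filter of the kidney. Col4a3 read 7.63, 7.70 and 7.75 in placebo and 7.64, 7.80, 7.67, 7.75 and 7.99 in ILPD. Col4a4 read 7.37, 7.44 and 7.41 in placebo and 7.40, 7.48, 7.47, 7.45 and 7.55 in ILPD. Both were lowest in ILPD array 1 and highest in ILPD array 5, and their groups overlapped. The differences were 0.08 (SE 0.08, limma adjusted p = 0.664) and 0.06 (SE 0.05, 0.585).

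Among the other chains, Col14a1 stood out by size and not by its test. Type XIV collagen, which it codes for, sits on the surface of fibrils and regulates their growth. Probe set 10896558 read 9.40, 9.33 and 9.28 in placebo and 8.93, 9.08, 8.61, 9.08 and 9.50 in ILPD. Thus 4 of 5 ILPD arrays lay below every placebo array and ILPD array 5 lay above every one. Placebo averaged 9.34 ± 0.06 (SD, n = 3) and ILPD 9.04 ± 0.32 (SD, n = 5). The difference of -0.30 (SE 0.16, limma adjusted p = 0.355) had the lowest adjusted p of the 25 genes. Without ILPD array 5 it was -0.41 (adjusted p = 0.0841), and without ILPD array 3 it was -0.19 (0.487). Col12a1, of the same fibril-associated family, differed by -0.03 (SE 0.06), Col16a1 by 0.03 (SE 0.05), Col9a2 by 0.04 (SE 0.06) and Col9a1 by 0.09 (SE 0.06, adjusted p = 0.454). Col9a1 read 7.12, 7.18 and 7.22 in placebo and 7.31, 7.31, 7.17, 7.22 and 7.30 in ILPD, with array 3 inside the placebo range.

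Network-forming and membrane collagens differed by at most 0.10. Col8a1, a short chain of vessel walls, differed by -0.04 (SE 0.08), and Col10a1, known from growing cartilage, by -0.04 (SE 0.09). Col10a1 read 6.85, 6.96 and 7.05 in placebo and 6.82, 6.85, 6.89, 7.19 and 6.81 in ILPD, where array 4 stood above the rest. The transmembrane chains Col17a1, Col13a1 and Col23a1 differed by 0.06, 0.06 and 0.10. Col23a1 read 7.35, 7.55 and 7.44 in placebo and 7.60, 7.47, 7.50, 7.58 and 7.57 in ILPD, and its difference did not pass (SE 0.06, limma adjusted p = 0.445). Col7a1, of the anchoring fibrils of skin, differed by 0.08 (SE 0.06), and Col6a4, of beaded microfibrils, by 0.06 (SE 0.06). The 3 probe sets of Col6a4 did not share a sign, at 0.06, 0.07 and -0.08.

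The classes differed little in their medians. The median difference was 0.03 over 10 fibrillar chains, of which 7 were positive, 0.06 over 3 basement membrane chains, of which 2 were positive, and 0.05 over 12 other chains, of which 8 were positive. These medians mostly describe dim chains, whose detection was not settled. Over the 20 chains with a mean of at most 8 the median was 0.06. Over the 5 brighter chains, all negative, it was -0.10. No member of any class was called, and the classes were compared by these counts and medians without a test. In single arrays, the median deviation from the placebo mean was highest in ILPD array 5 for the fibrillar (0.16) and the basement membrane chains (0.15). That array was also highest for all probe sets (0.04). The other chains were at 0.05 there, against 0.06 in ILPD array 4 and in placebo array 3. Further quantile normalization turned the 3 medians to -0.04, -0.02 and -0.03.

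The sign of a difference went with the mean level of the probe set. All 5 chains with a mean above 8, Col1a1, Col1a2, Col3a1, Col4a1 and Col14a1, had a negative difference as deposited, while 17 of the 20 dimmer ones had a positive one; the limit of 8 was chosen after the values were seen. Over all probe sets the median difference was 0.06 at a mean from 7 to 8, 0.02 from 8 to 9 and -0.05 from 9 to 10. Against these medians the 3 chains from 9 to 10 differed by 0.00 (Col1a1), -0.16 (Col1a2) and -0.25 (Col14a1), and Col3a1 and Col4a1 by -0.11 and -0.13. After cyclic loess normalization, which evens out differences that depend on level, Col1a1 differed by -0.01, Col1a2 by -0.18, Col14a1 by -0.27, Col3a1 by -0.11 and Col4a1 by -0.12, and none passed (lowest limma adjusted p 0.465 among them).

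**Figure D4:**
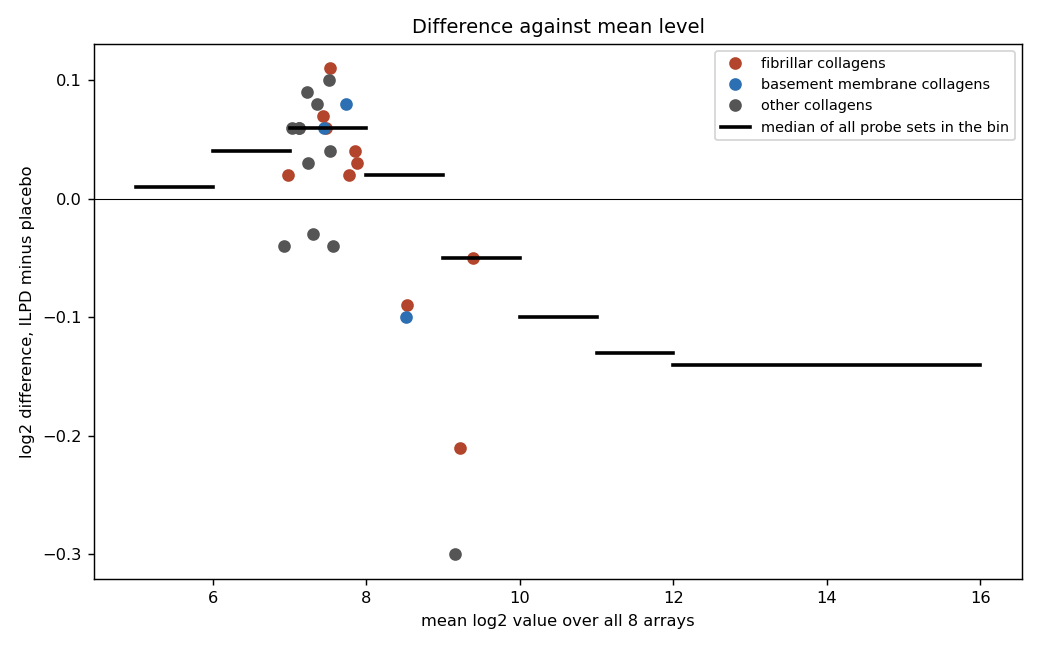
Log2 difference of ILPD minus placebo (y axis) against the mean log2 value over all 8 arrays (x axis) for 25 collagen genes, coloured by class, with the median of all probe sets in each bin of mean level as a black bar. The 5 chains above 8 lie below 0, and the bars pass from 0.06 at 7 to 8 to -0.14 above 12.

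Procollagen is folded and modified in the endoplasmic reticulum before it is secreted. In the collagen maturation list, 3 of 28 measured members fell and 0 rose, against 0.857% lower and 1.96% higher calls over all probe sets, with a list median of -0.08. Serpinh1, the chaperone dedicated to procollagen, fell by 1.37 (SE 0.16, limma adjusted p = 0.00343). It read 11.74, 12.10 and 11.93 in placebo and 10.77, 10.65, 10.02, 10.62 and 10.71 in ILPD. P4ha1, a catalytic subunit of the prolyl hydroxylase of collagen, fell by 1.75 (SE 0.12, limma adjusted p = 0.000372), and Plod1, a lysyl hydroxylase, fell by 0.65 (SE 0.07, limma adjusted p = 0.00215). These enzymes and chaperones were known from earlier results of these data, so they give no independent support. Plod1 read 10.39, 10.39 and 10.16 in placebo and 9.73, 9.70, 9.58, 9.62 and 9.69 in ILPD, with no overlap. The largest positive difference of the list, named after the values were seen, was that of the crosslinking enzyme Lox (0.37, SE 0.20, limma adjusted p = 0.370), which did not pass.

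Serpinh1 and P4ha1 were set against the chains within each array. The log2 ratio of Serpinh1 to Col1a1 differed by -1.31 between ILPD and placebo, at 2.18, 2.56 and 2.77 in placebo and 1.65, 1.29, 1.15, 1.07 and 0.79 in ILPD. The ratio to Col1a2 differed by -1.15 and that to Col3a1 by -1.28, and the ratios of P4ha1 to Col1a1, Col1a2 and Col3a1 differed by -1.70, -1.54 and -1.66. The pairs were chosen with these falls known, which fixed the direction, so the ratios are a description with no test. A ratio shows unequal change and does not show that the chain itself stayed the same.

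Receptors and partners of collagen followed no common direction. The fit called 2.81% of all probe sets, so 0 calls in lists of this size is near that share. Of 9 collagen receptors 0 passed limma's test (median 0.04); the largest differences were those of the receptor kinases Ddr2 (-0.21, SE 0.07, limma adjusted p = 0.159) and Ddr1 (-0.16, SE 0.10, 0.438). Of 15 proteoglycans and matrix proteins of fibrils 0 passed (median 0.03), with the largest differences for the adhesive glycoproteins Fn1 (0.61, SE 0.19, 0.129) and Thbs1 (0.55, SE 0.24, 0.260). Of 12 basement membrane partners 0 passed (median -0.09), with Lamb2, a laminin chain, at -0.26 (SE 0.09, 0.176) and Pxdn, which crosslinks type IV collagen, at 0.22 (SE 0.17, 0.546). Of 17 genes of TGF-beta and fibrotic signalling 0 passed (median -0.08). The feedback inhibitor Smad7 came closest (0.41, SE 0.10, 0.0540), and Pdgfrb, a growth factor receptor of mural cells, differed by 0.50 (SE 0.15, 0.117). An unadjusted limma p under 0.05 was found for 6 of these 17 genes, against 18.3% of all probe sets. The same count was 1 of 9 receptors, 2 of 15 fibril proteins and 1 of 12 basement membrane partners.

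Markers of other cell types were read in the same fit, in which 1.96% of all probe sets were called higher and 0.857% lower. In the endothelial list 1 of 9 rose, the secreted protein Egfl7 (0.60, limma adjusted p = 0.0282), and the next largest difference was that of Kdr (0.32, 0.127). In the pericyte and smooth muscle list 1 of 8 rose, the potassium channel Kcnj8 (0.64, 0.0120), followed by Pdgfrb. In the macrophage list 1 of 10 rose, the chemokine receptor Cx3cr1 (0.76, 0.0311), while Ccr2 differed by 1.21 (0.0624). In the neutrophil list 1 of 9 rose, Mmp9 (0.58, 0.0466), while Mmp8 differed by 1.32 (0.0511) and Il1r2 by 1.17 (0.0683), and all 9 members had a positive difference. Of the 10 ventricular cardiomyocyte markers Tnnc1 fell (-0.37, 0.0195), and Myh7 differed by -0.33 (0.567). All 10 had a negative difference (median -0.13), as did 90.3% of all probe sets with a mean above 12 (median -0.14). The call of Tnnc1 was lost after quantile and after cyclic loess normalization. Without placebo array 2 the calls of Egfl7, Kcnj8, Cx3cr1, Mmp9 and Tnnc1 were all lost, and likewise without placebo array 3. The call of Mmp9 held in 2 of 14 alternatives, those of Egfl7 and Cx3cr1 in 8, that of Tnnc1 in 9 and that of Kcnj8 in 12. Over the alternatives the limma adjusted p reached 0.104 for Egfl7, 0.0632 for Kcnj8, 0.123 for Cx3cr1, 0.162 for Mmp9 and 0.205 for Tnnc1. Of 3 atrial and 2 epicardial markers 0 passed, with differences up to 0.68 in size for Myl7 (-0.68, 0.556) and Sln (0.53, 0.501), and of -0.03 for Wt1 (0.909) and Msln (0.896). Myl7 varied widely within groups, at 10.83, 13.18 and 11.85 in placebo arrays 1 to 3. Its SD was 1.18 among placebo arrays and 0.79 among ILPD arrays. The mean of the neutrophil list ran from 7.36 to 7.90 in placebo and from 7.81 to 8.61 in ILPD, and that of the cardiomyocyte list from 13.56 to 13.66 and from 13.40 to 13.57. The part of cell composition in the collagen values was not tested.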

How the data were processed

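The deposited table held log2 values for 28826 probe sets on 8 arrays; that the authors deposited them on a log2 scale was settled from their range. For their normalization, the sources used here name no method, and the submitters' processing notes name R 2.14.2. Per the labels' protocols, biotinylated cRNA made from total RNA was put on Affymetrix arrays. The number of arrays limits the precision, and no detection call was used here.

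Of the probe sets, 15209 had 1 gene symbol in the platform annotation and 306 had several, which were not named; all 25 collagen genes matched the RefSeq table by gene ID. No filter was applied. A linear model per probe set (R 4.3.3, limma 3.58.1, moderated by eBayes, with no covariate) gave the differences, 2-sided, with Benjamini-Hochberg adjustment and a threshold of 0.05. Intervals are 95% intervals of the moderated fit. The fit was tested on simulated data. Exact permutation tests and figures used Python 3.11.15, scipy 1.17.1 and matplotlib 3.10.9.

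Members and lists were chosen with earlier results of these data known. Values in each array are given for the 2 largest positive and the 2 largest negative differences of each class and for the major chains of the heart. Of other lists, the called members and the 2 largest differences were named. Alternatives were another prior, quantile or cyclic loess normalization, a filter on the dimmest 40%, weights per array, a replicate block, averaging a gene's probe sets, other thresholds, other class limits and leaving out each array.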

Additional observations from a re-analysis of the deposited data

Results flagged for a closer look

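In 2 of 25 collagen genes, 1 ILPD array stood apart from the other ILPD arrays by more than Dixon's 95% limit for 5 samples (0.71 of the range). Col10a1 was 7.19 in ILPD array 4 against 6.89 in the next highest (0.796 of the range), and Col11a1 was 7.05 in ILPD array 4 against 6.99 (0.731 of the range). Chance alone marks about 1 in 20 groups. The 3 placebo arrays are too few for this check.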

How the results depend on the processing

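No collagen gene was called at an adjusted p of 0.05 under any alternative, nor at 0.1 in the fit as reported. The lowest limma adjusted p was 0.0766, for Col14a1 with the replicate block. Col1a2 with that block (0.0818) and Col14a1 without ILPD array 5 (0.0841) also lay below 0.1. The number of probe sets called, 811 as reported, was 484 after quantile normalization, 459 with the replicate block, 1756 at an adjusted p of 0.1, 217 with at least 1.5-fold, and between 172 (without placebo array 2) and 975 (without ILPD array 5) when single arrays were left out. Of the 25 differences, 8 kept their sign under all 15 alternatives. Quantile normalization gave -0.06 for Col11a2 and Col16a1, -0.05 for Col11a1, -0.04 for Col5a1, Col5a2 and Col9a2, -0.02 for Col27a1, Col4a4, Col17a1, Col6a4 and Col13a1, -0.01 for Col2a1, 0.00 for Col4a3 and Col7a1. Cyclic loess normalization gave -0.04 for Col11a2, Col11a1 and Col16a1, -0.03 for Col5a1 and Col9a2, -0.02 for Col5a2, 0.00 for Col27a1, Col4a4 and Col13a1, -0.01 for Col17a1 and Col6a4. The class medians were -0.02 (basement membrane) and -0.03 (other) after quantile and 0.00 and -0.02 after cyclic loess normalization. When single arrays were left out, the differences that turned ranged as follows: Col1a1 from -0.19 to 0.07, Col11a2 from -0.01 to 0.04, Col11a1 from -0.03 to 0.08, Col5a1 from -0.01 to 0.06, Col10a1 from -0.11 to 0.00, Col8a1 from -0.13 to 0.03, Col9a2 from -0.01 to 0.10, Col6a4 from 0.00 to 0.09.

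The replicate block gave -0.04 for Col5a1 and -0.02 for Col5a2. It gave -0.30 for Col1a1 (95% interval -0.49 to -0.11, limma adjusted p = 0.128), -0.35 for Col1a2 (-0.53 to -0.17, 0.0818), -0.25 for Col3a1 (-0.41 to -0.08, 0.140), -0.46 for Col14a1 (-0.69 to -0.24, 0.0766) and -0.16 for Col4a1 (-0.40 to 0.08, 0.525), so 4 of these intervals excluded 0 and no gene passed the adjusted threshold. These 5 genes are the chains with a mean above 8. The share of all probe sets whose interval excluded 0 with the block is not given here, so the count cannot be weighed. In the fit as reported, 18.3% of all probe sets had an unadjusted limma p under 0.05. ILPD arrays 4 and 5 have no placebo array of their number and so do not enter a blocked difference. The numbers are shared between groups only as numbers: deviations of same-numbered arrays correlated at 0.221, -0.0642 and -0.098, and not every array correlated best with its own number. The log2(value + 1) alternative was not run, since the values were already log2. Signal over background was not used here.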
